A study of Mus musculus with 54 samples.

Results

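The hippocampus of C3H HeJ mice was compared with that of C57BL6/J mice on 6 of the 54 arrays of a study of brain gene expression, 3 arrays of each strain, chosen by the tissue and strain in the sample labels. Both groups were inbred males sacrificed at postnatal day 60, and the labels name no drug, transgene or engineered allele. Each array carried RNA pooled from 3 mice, with hemispheres mixed. In each strain 1 pool came from mice tested at postnatal day 50 for prepulse inhibition and the other 2 from untested mice. Prepulse inhibition is the weakening of a startle response when a softer sound comes just before the loud one. The other hippocampal arrays, 3 each of BalbC/J, C57BL10/J, C57BLKS/J and C57L/J, entered the same statistical model and are used here to place the 2 strains among 6. The labels give the tissue as hippocampus, with no subfield or cell type, and all 23 tested markers of its granule and pyramidal cells lay above the 40th percentile on all 6 arrays.

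The hippocampus turns sensory and spatial input into memory through a chain of excitatory cells. Granule cells of the dentate gyrus contact CA3 pyramidal cells, and these contact CA1 pyramidal cells, while interneurons that release GABA, somatostatin or neuropeptide Y hold the circuit in check. It also senses stress hormones through glucocorticoid and mineralocorticoid receptors and is often studied for its part in sensory gating. C57BL6/J is the strain on which the mouse reference genome was built. C3H HeJ is an unrelated laboratory strain known for inherited retinal degeneration and for a mutated receptor for bacterial lipopolysaccharide, so the animals differ in sight and innate immunity as well as in brain. An array probe reads RNA only where its sequence matches, so a strain's sequence variant under a probe can change a value without a change in RNA. The design holds no measure of this, and its part in any strain difference below was not tested except by comparing probe sets of the same gene.

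Values are the authors' normalized log2 expression values, so a difference of 1 is a 2-fold change. The authors' scale was not calibrated to RNA molecules, and levels of different genes are not compared with each other. The 6 arrays had medians between 4.52 and 4.72, their 40th percentiles lay between 3.22 and 3.47, and arrays of the same strain correlated over probe sets at 0.998 to 0.999. The file gives no detection calls, so a difference from a group at the floor of the scale is a difference of these values and not a measured fold. In whole tissue, fewer cells of a type and less RNA per cell cannot be told apart. The replicates are separate pools, so a p-value here rests on variation from pool to pool and not from mouse to mouse. In every set of values below, the array of tested mice comes first and the 2 arrays of untested mice follow.

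Of 12315 genes tested, 2212 (18.0%) were called different between the strains, at a limma Benjamini-Hochberg adjusted p under 0.05 over all tested genes. There were 925 (7.51%) higher in C3H HeJ and 1287 (10.5%) lower. Most differences were small, since 1542 of the called genes differed by less than 1.5-fold and the median size among the called genes was 0.42. Past 2-fold stood 260 called genes (2.11%), 98 higher and 162 lower. The median difference over all tested genes was 0.0042, and the median standard error (SE) of a gene's difference was 0.091. For 3977 tested genes (32.3%) the 3 values of one strain lay wholly above the 3 of the other, and 2144 of the called genes were among them. Without the second untested C57BL6/J array the lower genes numbered 824 in place of 1287.

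**Figure D1:**
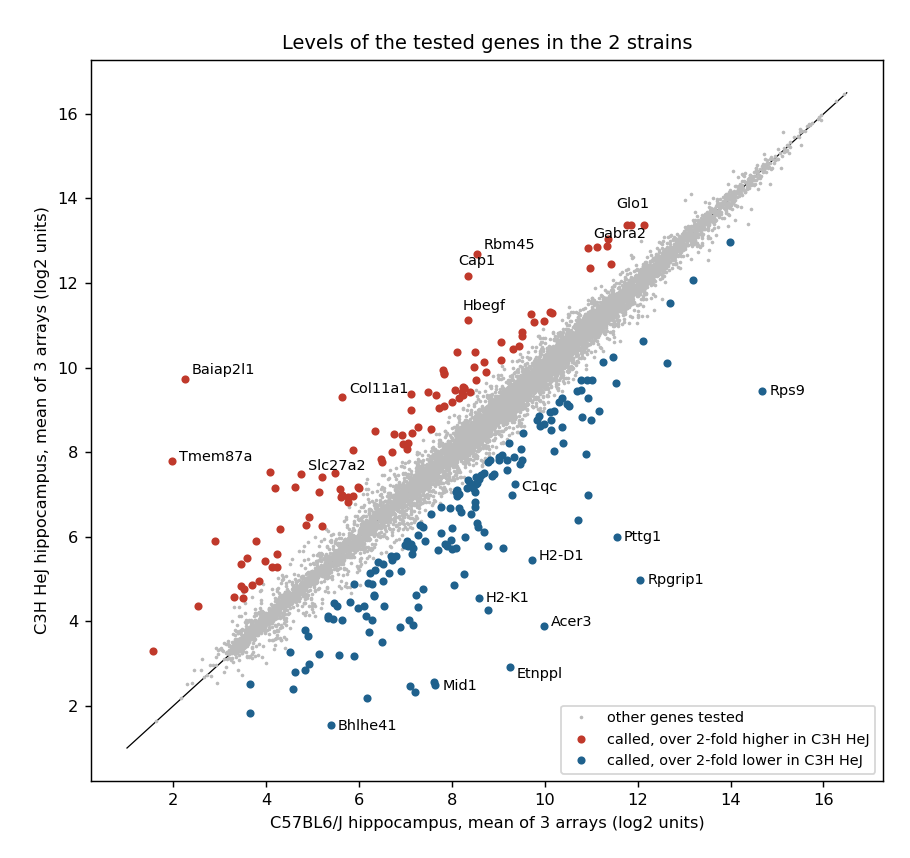
Mean log2 expression of each tested gene in C57BL6/J hippocampus (horizontal) against C3H HeJ hippocampus (vertical), 3 arrays each, with called genes coloured by direction and the most extreme named. The cloud lies on the diagonal, with Baiap2l1 (7.49) and Rpgrip1 (-7.08) farthest from it.

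Among the genes higher in C3H HeJ, Baiap2l1, an actin-binding adaptor that shapes cell protrusions, had the largest difference. It read 9.75, 9.56 and 9.92 on the C3H HeJ arrays and 2.16, 2.36 and 2.23 on the C57BL6/J arrays, the latter below the 40th percentile of every array. The groups were far apart, with a difference of 7.49 ± 0.09 (SE) and a limma adjusted p of 3.79e-17. Its next brightest probe set differed by 6.77. Tmem87a, a membrane protein of the Golgi, read 7.69, 7.81 and 7.90 against 1.93, 2.02 and 1.93, again at or near the floor in C57BL6/J (5.84 ± 0.11, limma adjusted p 2.06e-14). Rbm45, an RNA-binding protein, read 13.66, 12.79 and 11.65 against 8.37, 8.77 and 8.43. Its C3H HeJ arrays spread widely, yet the lowest of them was above every C57BL6/J array (4.17 ± 0.43, limma adjusted p 5.95e-06). Cap1, which recycles actin monomers, read 12.17, 12.22 and 12.14 against 8.68, 8.41 and 7.94, and a second probe set moved with it (3.83 and 4.06).

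Hbegf, a growth factor of the EGF family that binds ErbB receptors, was high in C3H HeJ alone. It read 11.11, 11.15 and 11.11 on the C3H HeJ arrays, which hardly differed among themselves, and 8.38, 8.33 and 8.30 on the C57BL6/J arrays. The difference was 2.79 ± 0.11 (limma adjusted p 6.53e-11), a second probe set gave 2.77, and the other 4 strains had means between 8.21 and 8.75. Col11a1, a fibrillar collagen chain, read 9.38, 9.31 and 9.21 against 5.11, 5.66 and 6.14 (3.66 ± 0.21, limma adjusted p 6.06e-09, with a second probe set called the same way). C57BL6/J was low for it and C57BL10/J, a close relative, was too, at 5.86, while the other 3 strains had means between 8.27 and 8.70. Slc27a2, which imports and activates very long chain fatty acids, read 7.25, 8.11 and 7.09 against 4.52, 5.13 and 4.58 (2.74 ± 0.30, limma adjusted p 1.23e-05). Its groups did not overlap, although the C3H HeJ values spread more widely than those of C57BL6/J. Wdfy1, an adaptor of Toll-like receptor signalling at endosomes, read 10.42, 10.40 and 10.28 against 7.93, 8.22 and 8.16, and Casp9, the initiator caspase of the mitochondrial death pathway, differed by 2.13 ± 0.09 (limma adjusted p 2.2e-10 and 2.73e-10). The rest of the named high genes were Cfap54 (3.44), a component of motile cilia, Mamdc2 (3.01), Abhd1 (2.96), Lsm12 (2.18), Lsm11 (2.04), which takes part in processing histone RNA, and Sfmbt2 (1.89), a Polycomb group gene. All of these were called, and each remained called without any 1 of the 6 arrays.

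On the lower side, Etnppl encodes the enzyme that breaks down phosphoethanolamine with pyridoxal phosphate as its cofactor, and it is expressed mainly in astrocytes. It read 2.97, 2.92 and 2.84 on the C3H HeJ arrays, below the 40th percentile of all 3, and 9.61, 9.14 and 9.01 on the C57BL6/J arrays. The difference was -6.34 ± 0.52 (limma adjusted p 4.83e-07), with -2.84 on the next probe set, and the C57BLKS/J mean was near the C3H HeJ level. Acer3, the alkaline ceramidase that splits long-chain ceramides, read 3.60, 4.13 and 3.90 against 9.85, 10.10 and 10.02 (-6.11 ± 0.12, limma adjusted p 2.06e-14), while all 4 other strains had means between 9.94 and 10.16. Its other probe sets were much less apart, at -0.67, -1.98 and 0.04, the last not called. Pttg1, securin, which holds sister chromatids together until anaphase, read 6.08, 5.94 and 5.95 against 11.21, 12.27 and 11.16, and a second probe set was as low (-5.56 and -5.43, limma adjusted p 1.74e-10). Mid1, a microtubule-associated ubiquitin ligase on the X chromosome, read 2.31, 2.25 and 2.89 against 8.14, 6.78 and 8.01 (-5.16 ± 0.25, limma adjusted p 1.04e-09). The other 4 strains read like C3H HeJ, with means between 2.16 and 2.21, so C57BL6/J stood alone. Sox2ot, the long noncoding RNA around Sox2, read 4.17, 4.64 and 4.02 against 8.63, 8.78 and 8.90 (-4.49 ± 0.13, limma adjusted p 2.73e-12). Rpgrip1, a scaffold of the photoreceptor cilium, had the lowest difference (-7.08 ± 0.24) on its brightest probe set, whereas its next probe set differed by 0.08 and was not called. The ribosomal protein gene Rps9 gave the same contrast, -5.23 ± 0.13 on the brightest and -0.18 on the next. Other low genes named by the rule were Gm19439 (-4.88), Zfp874a (-4.63), a zinc finger gene, Dmp1 (-3.02), a matrix phosphoprotein of bone, Sspn (-2.98), a member of the dystrophin complex, Mtmr7 (-2.95), a phosphoinositide phosphatase, Ppp1r3e (-2.60), a glycogen-targeting subunit of a protein phosphatase, and 4933439C10Rik (-2.59).

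The probe set annotated to the microRNA gene Mir1931 read 2.75, 2.28 and 2.66 on the C3H HeJ arrays and 7.64, 7.90 and 7.31 on the C57BL6/J arrays, with no overlap (-5.05 ± 0.16, limma adjusted p 6.62e-12). C57BL10/J and C57BLKS/J were high like C57BL6/J, at 8.40 ± 0.11 and 8.11 ± 0.24 (SD, n = 3), and BalbC/J and C57L/J were low, at 2.70 ± 0.03 and 2.48 ± 0.18. The array primes RNA with poly(A) tails and does not measure the mature microRNA, so the values are those of the annotated transcript around it. The mature sequence in RefSeq (GRCm38.p6, chr10:93162879-93162900, plus strand) is shown because it is the only microRNA among the genes named here, with its seed, bases 2 to 8, in capitals.
mmu-miR-1931: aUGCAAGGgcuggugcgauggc

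Placing the 260 called genes past 2-fold among the 6 strains, by whether each other strain's mean lay nearer C3H HeJ or C57BL6/J, BalbC/J was nearer C3H HeJ for 156, C57BLKS/J for 73, C57L/J for 60 and C57BL10/J for 30. In 81 genes (31.2%), 32 higher and 49 lower, C3H HeJ stood apart from all 5 other strains, as with Hbegf, Slc27a2, Acer3 and Sox2ot. In 73 (28.1%) it was joined by BalbC/J alone, as with Baiap2l1, Tmem87a and Rbm45. In 12 genes C57BL6/J stood alone, among them Mid1, Gabra2 and Wdfy1. Since the 260 genes were picked for the difference between C3H HeJ and C57BL6/J, these counts describe the other strains and carry no test. Against BalbC/J in the same model, 1085 genes (8.81%) were called different from C3H HeJ. This comparison shares the 3 C3H HeJ arrays with the first, so its values stand beside it and do not count as further support. Hbegf differed from BalbC/J by 2.37 (limma adjusted p 8.03e-10) and Sox2ot by -4.23 (9.99e-12), whereas Tmem87a, at -0.11, was not called (0.696).

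**Figure D2:**
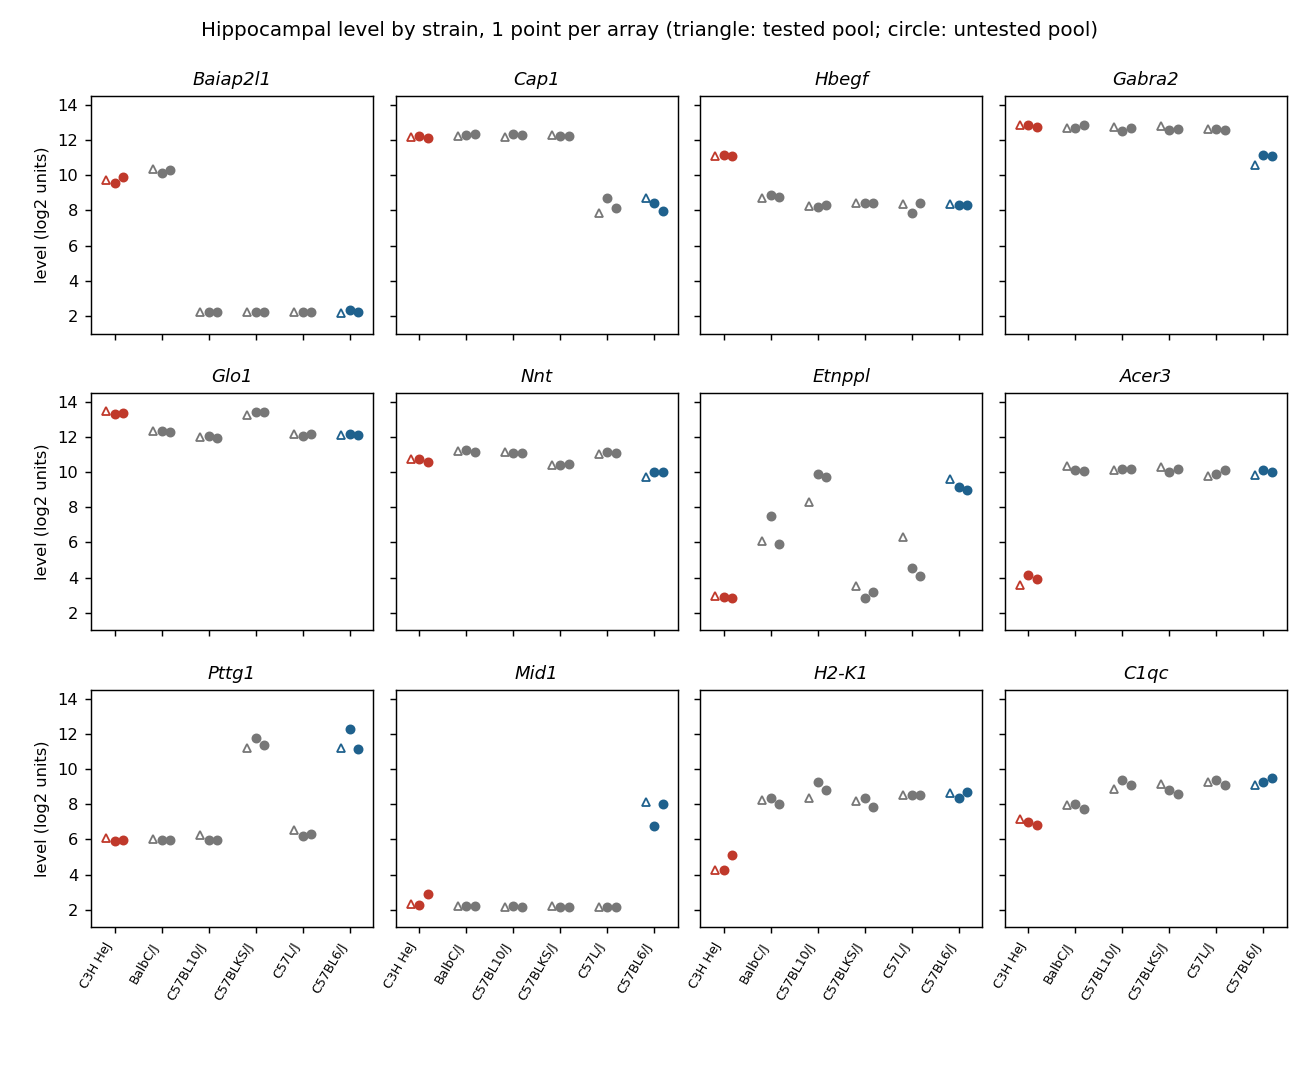
Log2 expression of genes with large strain differences on all 18 hippocampal arrays, 3 per strain, 1 point per array. The 3 Hbegf points of C3H HeJ lie at 11.11 to 11.15, above the means of the 5 other strains, and the 3 Mid1 points of C57BL6/J lie between 6.78 and 8.14, above the means of the 5 other strains.

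Of 7 genes listed because they carry documented DNA variants of these strains, 5 were tested. Of these, 3 were called, all higher in C3H HeJ, beside 7.51% of all genes called higher. Gabra2, the alpha 2 subunit of the GABA-A receptor, which has a splice-site deletion in C57BL6/J, read 12.87, 12.86 and 12.73 on the C3H HeJ arrays and 10.58, 11.13 and 11.09 on the C57BL6/J arrays. The groups were well apart (1.89 ± 0.11, limma adjusted p 1.43e-08), its next probe set gave 1.64, and the other 4 strains sat with C3H HeJ at 12.58 to 12.72. Glo1, glyoxalase I, which clears methylglyoxal and is duplicated in several inbred strains, read 13.50, 13.32 and 13.34 against 12.11, 12.19 and 12.11 (1.25 ± 0.06, limma adjusted p 9.33e-10). All 4 of its probe sets were called higher, by 1.25, 0.83, 1.07 and 0.78, and C57BLKS/J had a mean of 13.37, like C3H HeJ. Nnt, the mitochondrial transhydrogenase that C57BL6/J carries in truncated form, read 10.75, 10.77 and 10.58 against 9.71, 9.99 and 9.99 (0.80 ± 0.07, limma adjusted p 1.27e-06). Gria4, the AMPA receptor subunit known for a transposon insertion in C3H HeJ, differed by 0.23 ± 0.13 on its brightest probe set (limma adjusted p 0.242, not called) and by -0.88 on the next, which was called. Pde6b, the gene of the retinal degeneration allele, differed by 0.02 and was not called.

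A gene's probe sets read different stretches of its transcript, so each of 22659 probe sets was also tested on its own, and 4469 (19.7%) were called. Of the 2212 called genes, 1203 had a next brightest probe set that was tested. It was called in the same direction for 413 (34.3%), in the opposite direction for 79 (6.57%) and not called for 711 (59.1%). Over all 5905 tested genes with a tested next probe set, it was called for 1282 (21.7%). Past 2-fold, 67 of 117 had a second call the same way, 4 the opposite way and 46 none. The genes with the widest disagreement, chosen after their values were seen, included Prune2, at 1.58 and -8.62 on its first 2 probe sets, and Lin7c, a scaffold of polarised membranes, at -0.67 and -8.62. Slc1a2, the main astrocytic glutamate transporter, differed by -0.35, 2.34, 0.21, -3.49 and 0.45 on its 5 tested probe sets, all called but the one at 0.21. Pdxdc1, the decarboxylase gene named in the study's title, read -1.44, -6.62, 7.82 and -0.83. No single direction holds for these genes. Baiap2l1, Cap1, Hbegf, Col11a1, Pttg1, Glo1 and Gabra2, by contrast, had a second probe set called the same way.

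**Figure D3:**
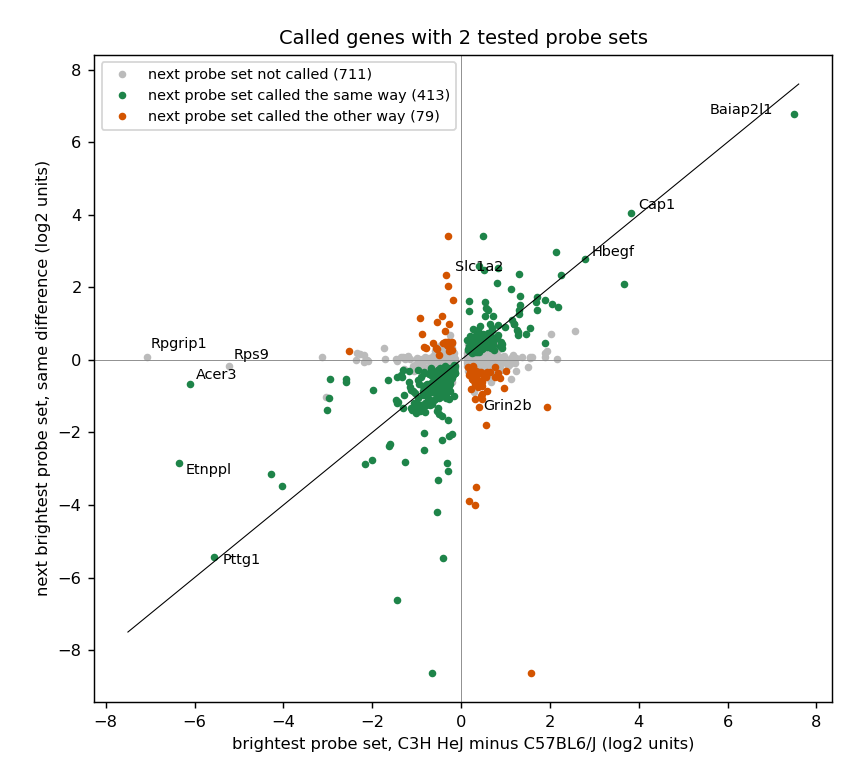
Strain difference (log2, C3H HeJ minus C57BL6/J) on a gene's brightest probe set (horizontal) against the next brightest (vertical), 1 point per called gene with both tested. Points on the diagonal, such as Baiap2l1 at 7.49 and 6.77, have probe sets that move together, and points on the horizontal zero line, such as Rpgrip1 at -7.08 and 0.08, do not.

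Of the cell types listed, the dentate granule cell markers were the neuronal list with the largest share of lower genes. Of 8 tested, 4 were lower and none higher in C3H HeJ, with a median of -0.38 beside 0.0042 over all genes and 10.5% of all genes called lower. C1ql2, a synaptic organiser that mossy fibres secrete onto CA3 cells, read 8.58, 8.74 and 8.44 on the C3H HeJ arrays and 10.45, 10.26 and 10.42 on the C57BL6/J arrays. The groups did not overlap (-1.79 ± 0.14, limma adjusted p 2.91e-07), and BalbC/J and C57L/J, at 8.74 and 8.76, sat with C3H HeJ. Tdo2, which opens the ring of tryptophan, differed by -0.93 ± 0.16, Lct, lactase, by -0.78 ± 0.12 and Calb1, a calcium buffer, by -0.28 ± 0.07 (limma adjusted p 0.000811, 0.000304 and 0.0091). Other probe sets of Calb1 differed by -0.30, 0.12 and -0.10, none called, and its call was also lost on untested arrays alone. Prox1, which sets granule cell identity, differed by -0.13 and Dsp by -0.10, neither called. The summed level of the list (log2 of the summed linear values) ran 12.77 to 12.84 in C3H HeJ and 13.18 to 13.25 in C57BL6/J. The pyramidal lists had few calls, with 2 of 5 CA1 markers (Fibcd1 -0.59 and Wfs1 0.37), 1 of 5 CA2 (Pcp4 -0.32) and 1 of 5 CA3 (Bok -0.75). The call of Wfs1 was lost without the second untested C3H HeJ array (differences of 0.30 to 0.43 over the 6 arrays left out in turn, as for every such range below), and that of Pcp4 without any of 4 arrays (all 3 of C3H HeJ and the tested C57BL6/J one, -0.38 to -0.22). Of 4 markers of newborn neurons, Sox11 was lower at -0.51, a call lost without the second untested C3H HeJ or the first untested C57BL6/J array (-0.64 to -0.38). The summed CA1 markers ran 13.08 to 13.20 in C3H HeJ and 13.05 to 13.18 in C57BL6/J, and the summed CA3 markers 11.15 to 11.31 in C3H HeJ and 11.28 to 11.54 in C57BL6/J.

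Markers of myelinating oligodendrocytes were lower in C3H HeJ for 6 of 9 tested members (10.5% over all genes) and higher for none, with a median of -0.51. Opalin, a myelin membrane glycoprotein, read 9.52, 9.50 and 9.02 against 10.13, 10.01 and 10.42 (-0.84 ± 0.14, limma adjusted p 0.000588). Mog, Mobp, Mag, Ermn and Cnp differed by -0.75, -0.68, -0.66, -0.51 and -0.42, while Mbp, the major myelin basic protein, was at 0.03 and not called. Leaving out the second untested C3H HeJ array gave 3 lower members, and over all single arrays left out there were 3 to 7. The summed level ran 16.63 to 16.82 in C3H HeJ and 16.82 to 17.08 in C57BL6/J. None of 5 oligodendrocyte precursor markers was called (median 0.001), and summed they ran 10.79 to 10.92 in C3H HeJ and 10.85 to 11.06 in C57BL6/J.

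Of 10 astrocyte markers, 3 were higher and 2 lower on their brightest probe sets, beside 7.51% and 10.5% of all genes. Without Slc1a2, whose probe sets differ in direction, 1 of 9 was lower. Gja1, the gap junction protein connexin 43, read 14.63, 14.57 and 14.57 against 14.25, 14.22 and 14.24 (0.35 ± 0.05, limma adjusted p 6.27e-05). Gfap differed by 0.40 ± 0.10 and the water channel Aqp4 by 0.42 ± 0.12, whereas Aldoc differed by -0.31 ± 0.06. The higher count fell to 1 without the tested C3H HeJ, the first untested C3H HeJ or the second untested C57BL6/J array. Mural cell markers were lower for 2 of 5, Rgs5 at -0.49 ± 0.05 (limma adjusted p 6.39e-06) and Abcc9 at -0.46, a call lost without any array but the tested C3H HeJ one (-0.56 to -0.39). Of 6 endothelial markers, Flt1 was higher (0.43) and Cldn5 lower (-0.53), and both calls were lost without either untested C3H HeJ array, the tested C57BL6/J array or the second untested C57BL6/J array (0.29 to 0.57 and -0.71 to -0.40). None of 6 choroid plexus markers was called. The arrays differed widely in them within each strain, and Ttr, transthyretin, the most abundant, read 16.14, 14.83 and 11.35 on the C3H HeJ arrays and 13.44, 12.85 and 15.52 on the C57BL6/J arrays. Of the neighbouring regions, thalamic markers had no call among 6, striatal markers had 1 higher (Gpr6 0.85, with overlapping groups) and 1 lower (Penk -0.67) of 5, and cortical markers had 2 higher of 5 (Rorb 0.67 and Fezf2 0.34). The higher count of both lists was 0 without either untested C3H HeJ array, the tested C57BL6/J array or the second untested C57BL6/J array. Summed cortical markers ran 12.60 to 12.71 in C3H HeJ and 12.39 to 12.60 in C57BL6/J, and summed striatal markers 11.65 to 11.77 in C3H HeJ and 11.44 to 11.88 in C57BL6/J. Summed thalamic markers (median difference -0.25) read 11.40, 11.15 and 10.37 on the C3H HeJ arrays and 12.06, 10.80 and 10.88 on the C57BL6/J arrays. The part of cell makeup and of neighbouring tissue in the strain differences was not tested.

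**Figure D4:**
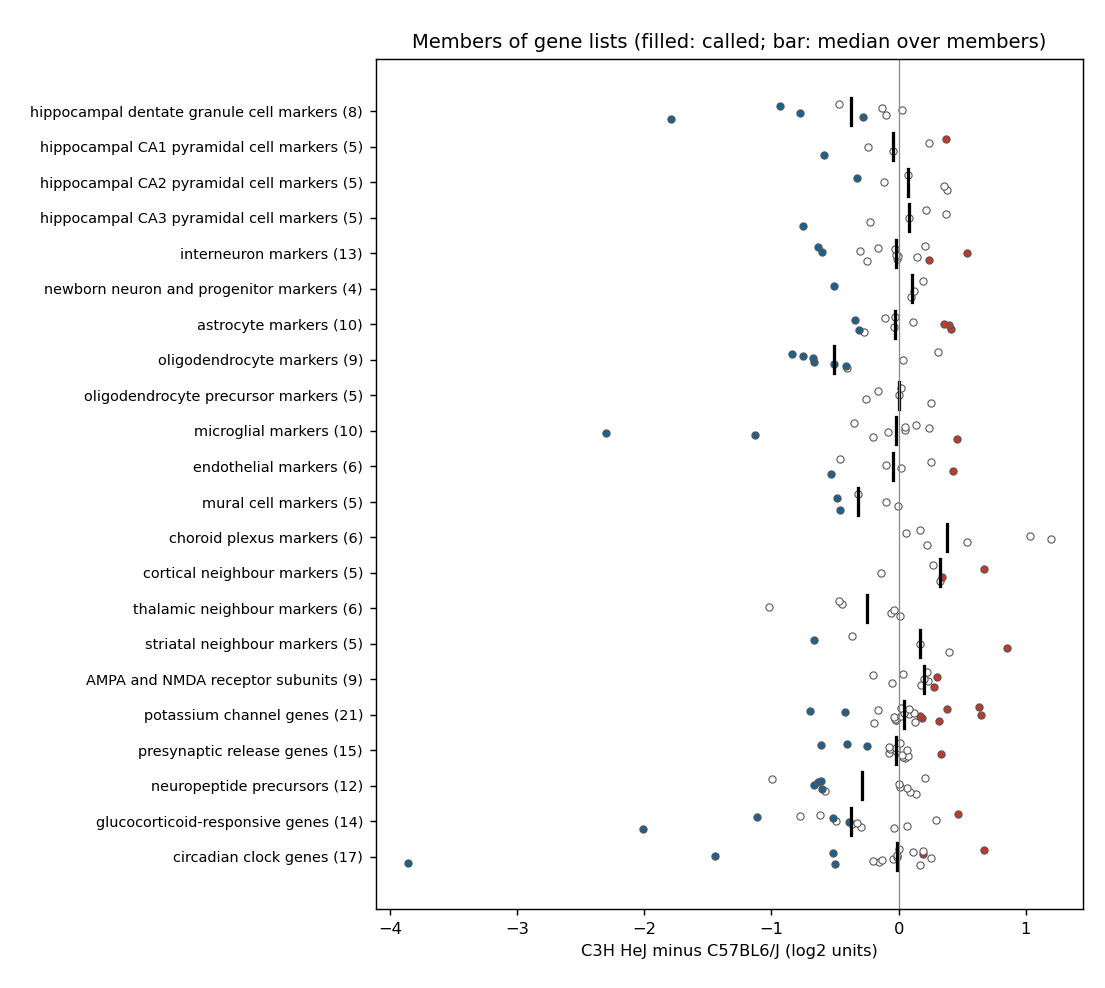
Strain difference (log2, C3H HeJ minus C57BL6/J) of each tested member of the gene lists shown, 1 row per list, with called members filled and the list median as a bar. Dentate granule cell markers (median -0.38) and oligodendrocyte markers (median -0.51) lie mostly left of zero.

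Genes through which hippocampal neurons receive signals are given beside the 7.51% of all genes called higher and 10.5% called lower. Among 9 tested AMPA and NMDA receptor subunits, Gria1 (0.28 ± 0.06) and Grin2b (0.30 ± 0.09) were higher, but their next probe sets differed by -0.20 and -1.08, so neither direction held, and the call of Grin2b was lost without the tested or first untested C3H HeJ array or the tested or second untested C57BL6/J array (0.25 to 0.37). No kainate or delta receptor subunit (of 6), metabotropic glutamate receptor (of 6) or other GABA synapse gene (of 5) was called, and of 9 GABA-A subunits Gabra2 alone was. Htr1b, the serotonin receptor on many axon terminals, was at 0.42 ± 0.11 with overlapping groups (limma adjusted p 0.0136), the only call among 6 serotonin receptors and one lost without the second untested C57BL6/J array, which left 0. Of 15 postsynaptic scaffold and plasticity genes, 1 was higher and 1 lower, beside 7.51% and 10.5% of all genes. Dlg4, the scaffold PSD-95, was lower at -0.51 ± 0.16, with -0.36 on its next probe set, a call lost without either untested C3H HeJ array or the tested or first untested C57BL6/J array (-0.69 to -0.29). Without the tested C57BL6/J array, 3 were higher. Camk4, a nuclear calcium-dependent kinase, read 11.18, 11.30 and 11.31 against 10.88, 10.90 and 10.89 (0.38 ± 0.06, limma adjusted p 0.000598).

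Among 15 tested genes of transmitter release, 3 were lower and 1 higher, whichever array was left out, beside 10.5% and 7.51% of all genes. Syt1, the calcium sensor for fast release, read 13.42, 13.46 and 13.58 on the C3H HeJ arrays and 14.28, 13.93 and 14.08 on the C57BL6/J arrays, with no overlap (-0.61 ± 0.07, limma adjusted p 1.86e-05). Its next probe set gave -1.12, and the other 4 strains, at 14.13 to 14.24, sat with C57BL6/J. Syn2, a synapsin that tethers vesicles, differed by -0.25 ± 0.04, Vamp1, a vesicle fusion protein, by -0.40 ± 0.09 and Rims1, an active zone scaffold, by 0.33 ± 0.06. The calls of Vamp1 and Rims1 were lost on their next brightest probe sets. Of 21 potassium channel genes 6 were higher and 2 lower (7.51% and 10.5% over all genes), though the higher count was 3 with any array but the first untested C57BL6/J left out. These counts include genes whose probe sets differ in direction. Kcnj9 differed by -0.42 on its brightest probe set and by 1.22 on the next, both called. Kcnq5 differed by 0.63 on its brightest, by 0.15 on the next, not called, and by -5.51 on the one after, called. Kcnk1, a tandem-pore leak channel, read 10.51, 10.51 and 10.46 against 11.28, 11.10 and 11.21 (-0.70 ± 0.09, limma adjusted p 3.06e-05), and Kcnj10, the astrocytic channel that buffers potassium, read 10.47, 10.63 and 10.56 against 10.09, 9.70 and 9.91 (0.65 ± 0.09, limma adjusted p 9.77e-05). Of 18 sodium and calcium channel genes, Cacna1b (0.36) and Cacna2d3 (0.21) were higher and Cacnb4 (-0.29) lower, each a call that ended without C3H HeJ untested pool 2 and without at least 2 others (0.30 to 0.46, 0.13 to 0.29 and -0.36 to -0.23).

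Neuropeptide precursors were lower for 4 of 12 tested (10.5% over all genes) and higher for none, whichever array was left out, with a median of -0.29. Sst, somatostatin, which marks interneurons that inhibit dendrites, read 11.53, 11.70 and 11.73 on the C3H HeJ arrays and 12.32, 12.16 and 12.37 on the C57BL6/J arrays (-0.63 ± 0.06, limma adjusted p 4.67e-06). Npy, neuropeptide Y, read 10.03, 10.07 and 10.07 against 10.78, 10.52 and 10.70 (-0.61 ± 0.07, limma adjusted p 1.72e-05). Neither gene's arrays overlapped, and each gene has 1 probe set. Tac1, the substance P precursor, differed by -0.61 ± 0.14 and Penk, the enkephalin precursor, by -0.67 ± 0.15. The call of Tac1 was lost on its next brightest probe set, where the sign was reversed. Of 13 tested interneuron markers, Sst and Npy were lower and Nos1 and Cnr1 higher, beside 10.5% and 7.51% of all genes. Cnr1 differed by 0.24, with -0.51 on its next probe set. Nos1 differed by 0.46 to 0.62 as single arrays were left out, and its call was lost on its next probe set. Gad1 (-0.01), Gad2 (0.14) and Slc32a1 (-0.16), which make and load GABA in all interneurons, were not called. The summed interneuron markers ran 15.47 to 15.54 in C3H HeJ and 15.45 to 15.59 in C57BL6/J. Bdnf, the neurotrophin of activity-dependent plasticity, read 8.82, 8.56 and 8.60 against 9.95, 9.88 and 10.10 (-1.32 ± 0.14, limma adjusted p 9.56e-06). All 4 other strains, at 9.47 to 9.77, lay above C3H HeJ, and the next probe set differed by -0.28. Among 14 prepulse inhibition and schizophrenia candidates tested, Nrg1 (0.57 ± 0.15), a ligand of ErbB receptors, and Tcf4 (0.35 ± 0.05) were higher and Bdnf lower, and 1 was higher without the tested C3H HeJ, first untested C3H HeJ or tested C57BL6/J array. Of 15 activity-regulated genes, Nr4a3 (0.28) was higher, a call lost without any array but the second untested C57BL6/J one (0.20 to 0.37), and Nptx2 (-0.37) lower, a call lost without the first untested C3H HeJ array (-0.45 to -0.32).

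Genes that respond to glucocorticoids were lower for 4 of 14 tested (10.5% over all genes) and higher for 1, with a median of -0.38 and 3 to 5 lower as single arrays were left out. Sgk1, a kinase that raises ion channel activity, read 12.12, 12.13 and 12.00 on the C3H HeJ arrays and 13.08, 13.29 and 13.23 on the C57BL6/J arrays. The groups did not overlap, the difference was -1.12 ± 0.26 (limma adjusted p 0.00803), and the other strains had means between 12.31 and 12.75. Arrdc2 read 3.78, 4.35 and 4.27 against 6.31, 5.90 and 6.22 (-2.01 ± 0.43, limma adjusted p 0.00419). Per1, also a clock gene, differed by -0.51 ± 0.10 and Mt2, a metallothionein, by -0.39 ± 0.12, while Fkbp5 (-0.37) and Tsc22d3 (-0.62) were not called. Zbtb16 was higher at 0.46, a call lost without any of the 4 untested arrays (0.42 to 0.55). Nr3c1, the glucocorticoid receptor, was at -0.04 ± 0.07 and not called, and Nr3c2, the mineralocorticoid receptor, was higher at 0.27 ± 0.08, a call lost without any array but the second untested C57BL6/J one (0.20 to 0.34). The sources used here do not give the hour at which tissue was taken.

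Among 17 clock genes, 4 were lower and 2 higher, beside 10.5% and 7.51% of all genes. Bhlhe41, a repressor that damps CLOCK and BMAL1, read 1.60, 1.56 and 1.45 on the C3H HeJ arrays, below the 40th percentile of all 3, and 4.91, 5.91 and 5.37 on the C57BL6/J arrays (-3.86 ± 0.19, limma adjusted p 1.49e-09). C57BLKS/J was as low, at 1.51, and the other 3 strains had means between 4.99 and 5.39. Its relative Bhlhe40 differed by -0.50 ± 0.09 and Npas2, a CLOCK paralog, by -1.44 ± 0.44, with -0.03 on its next probe set. Rorb (0.67) and Nr1d2 (0.19) were higher, but their next probe sets differed by -0.61 and -0.41, and the call of Nr1d2 was lost without the tested C3H HeJ or second untested C57BL6/J array (0.16 to 0.24) and that of Rorb without 4 arrays, among them both untested C3H HeJ ones (0.55 to 0.81).

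Immune genes showed large differences in a few members. The counts in this paragraph stand beside 7.51% of all genes called higher and 10.5% called lower. Of 6 tested genes of antigen presentation, the 2 classical class I chains were lower and the others were not called. H2-D1 read 5.51, 5.13 and 5.67 against 9.92, 9.53 and 9.69 (-4.28 ± 0.15) and H2-K1 read 4.28, 4.25 and 5.11 against 8.66, 8.37 and 8.70 (-4.03 ± 0.23, limma adjusted p 2.98e-11 and 5.61e-09). Class I genes are among the most polymorphic of the mouse and the strains carry different haplotypes. How well the probes match C3H HeJ was not tested, and other probe sets of H2-D1 differed by -3.13, -4.59 and 3.19, with 4 more not called. B2m, the shared light chain, was at -0.33 and not called. The complement subunit genes C1qc and C1qb were lower. C1qc read 7.14, 6.98 and 6.82 against 9.11, 9.26 and 9.48 (-2.30 ± 0.15, limma adjusted p 4.69e-08), with BalbC/J at 7.91. C1qb read 10.40, 10.07 and 9.91 against 10.91, 11.47 and 11.40 (-1.13 ± 0.14, limma adjusted p 4.06e-05), and all 3 of its probe sets were lower, at -1.13, -0.82 and -1.58. C1qa, the third chain of the same protein, was at -0.20 ± 0.11 and not called, and of the other microglial markers Cx3cr1 (0.05), Csf1r (-0.09) and Tmem119 (0.05) were not called while Aif1 was higher (0.46 ± 0.09). Of 9 tested interferon-induced genes Ifi30 alone was called (0.52 ± 0.12). Of 19 chaperones, Pdia6 was lower (-0.46), a call lost without any array but the first untested C57BL6/J one (-0.60 to -0.26). All 3 tested Y-linked genes were higher in C3H HeJ, Uty, a histone demethylase, by 1.71 ± 0.14, Kdm5d by 1.19 ± 0.10 and the translation factor gene Eif2s3y by 1.14 ± 0.11.

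Pdxdc1 and Etnppl both encode enzymes that bind pyridoxal phosphate, the active form of vitamin B6, a cofactor of transaminases and decarboxylases. Of 29 tested enzymes of this kind, 8 were lower and 1 higher on their brightest probe sets, beside 10.5% and 7.51% of all genes, with a median of -0.04. Without Pdxdc1, whose probe sets differ in direction, 7 of 28 were lower. Without the second untested C3H HeJ array or the second untested C57BL6/J array, 4 were lower. Beside Etnppl and Pdxdc1, those lower on their brightest probe sets were Ddc (-0.71), which makes dopamine and serotonin, Shmt2 (-0.46), Bcat1 (-0.44), Gpt2 (-0.41), Got1 (-0.40) and Pygm (-0.38), and Shmt1 was higher (0.60 ± 0.11). None of 5 genes that make or remove the cofactor was called, Pdxk, the kinase that forms it, being at -0.11. Etnppl acts on an intermediate of phosphatidylethanolamine synthesis, and of 13 tested genes of ethanolamine and choline phospholipids 4 were lower (10.5% over all genes) and none higher. Gdpd1, a lysophospholipase D, differed by -1.22 ± 0.07 with 0.08 on its next probe set, Pisd, the mitochondrial phosphatidylserine decarboxylase, by -0.78 ± 0.15, Chka by -0.25 ± 0.07 and Cept1 by -0.19 ± 0.06. The calls of Chka (-0.29 to -0.18) and Cept1 (-0.26 to -0.12) were lost without the tested C3H HeJ or second untested C57BL6/J array, and that of Cept1 also without 3 others. The lower count was 2 without the tested C3H HeJ or the second untested C57BL6/J array.

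The strain difference in hippocampus was set against the same difference in striatum and in brainstem by an interaction term. Mice were shared across tissues, and the sources used here do not say which pools share them, so these p-values are not exact. Against striatum 932 of 11847 genes (7.87%) were called, 138 with a higher difference in hippocampus and 794 with a lower one. After quantile normalization the split was 192 to 387, and after median centring 93 to 267. Against brainstem 819 of 11914 (6.87%) were called, 242 higher and 577 lower. That split turned to 423 higher and 329 lower after quantile normalization and to 304 and 203 after median centring, so no general direction is given. The striatum count was 524 and 507 without the tested or second untested C3H HeJ hippocampus array, 508 and 423 without the tested or second untested C57BL6/J hippocampus array, and 521, 462 and 489 without the first untested C3H HeJ, first untested C57BL6/J or second untested C57BL6/J striatum array. The brainstem count was 493 and 543 without the tested or second untested C3H HeJ hippocampus array, 491, 1320 and 501 without the tested, first untested or second untested C57BL6/J hippocampus array, and 1526, 1508 and 468 without the tested C3H HeJ, first untested C3H HeJ or first untested C57BL6/J brainstem array.

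For Col11a1 the hippocampal difference of 3.66 stood beside -0.26 in striatum and -0.51 in brainstem (interactions 3.92 ± 0.43 and 4.17 ± 0.50, limma adjusted p 4.07e-06 and 7.88e-06). In striatum it was low in both strains, with means of 3.88 in C3H HeJ and 4.14 in C57BL6/J. The brainstem means were 6.86 and 7.36. Slc27a2 differed by 2.74, 0.63 and -0.39 (interactions 2.11 ± 0.41 and 3.13 ± 0.48, limma adjusted p 0.00314 and 0.000297). Hbegf was higher by 2.79 in hippocampus and by 1.26 in striatum (interaction 1.53 ± 0.19, limma adjusted p 2.8e-05). Acer3 was lower in all 3 tissues, at -6.11, -4.04 and -3.52. Npy, at -0.61 in hippocampus, was at 0.15 in striatum and at 0.23 in brainstem (interactions -0.75 ± 0.12 and -0.83 ± 0.17, limma adjusted p 0.000601 and 0.00519). C1ql2 and Bdnf differed by 0.50 and -0.07 in brainstem (interactions -2.29 ± 0.28 and -1.24 ± 0.24, limma adjusted p 1.13e-05 and 0.00245). C1ql2 was low in brainstem in both strains, with means of 4.63 in C3H HeJ and 4.13 in C57BL6/J. The part of low levels in the other tissue was not tested for any of these interactions. Each of these interactions was called without any 1 of the 12 arrays of both strains in the tissues compared, whereas that of H2-D1 against striatum (-1.61) was called in 2 of the 12 such fits. No gene that was called had differences over 1 in opposite directions in hippocampus and either other tissue.

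Behavioural testing was compared between the strains by an interaction term, the change with testing in C3H HeJ minus that in C57BL6/J. Each strain had 1 tested pool, so testing and pool cannot be told apart. The p-values rest on the spread between the 2 untested pools within each of the 6 strains. At this adjusted p 27 of 12315 genes (0.219%) were called, 21 of them higher, and 2389 had an unadjusted p under 0.05. The count was 56 and 11 without the first or second untested C3H HeJ array, and 7 and 1234 without the first or second untested C57BL6/J array. Of the called genes, Gbp7, Gbp3, Iigp1 and Irgm2 encode interferon-inducible GTPases, and the other members shown were chosen after their values were seen. These proteins, the guanylate-binding proteins (Gbp) and the immunity-related GTPases (Igtp, Iigp1 and Irgm), coat the vacuoles of intracellular pathogens and are induced by interferon gamma. Gbp7 read 7.48, 5.22 and 5.24 on the C3H HeJ arrays and 4.59, 5.35 and 5.22 on the C57BL6/J arrays (interaction 2.94 ± 0.26, limma adjusted p 0.00209). The tested C3H HeJ pool alone was high, and the other 5 arrays of both strains lay well below it. Gbp3 read 8.82, 6.70 and 6.28 against 6.01, 6.33 and 6.11 (interaction 2.54), Iigp1 read 6.97, 3.89 and 3.81 against 3.86, 4.14 and 3.79 (3.23) and Irgm2 read 5.82, 3.11 and 3.02 against 3.94, 3.39 and 3.29 (2.15). Each showed the same single high array. The summed log2 level of the 9 interferon-induced genes was 12.03 on the tested C3H HeJ array, 11.40 and 11.01 on the untested ones, and 11.44, 11.26 and 11.55 on the C57BL6/J arrays. That of the 6 MHC and antigen presentation genes was 12.57 on the tested C3H HeJ array, 11.80 and 11.59 on the untested ones, and 12.52 to 12.59 on the C57BL6/J arrays. That of the 6 choroid plexus markers was 16.16 on the tested C3H HeJ array, the highest of the 6 arrays, 14.84 and 11.42 on the untested ones, and 13.47, 12.88 and 15.54 on the C57BL6/J arrays. Their part in the result was not tested. These 3 calls were lost without the second untested C3H HeJ or the first untested C57BL6/J array, and that of Gbp7 was not. Gbp2, which lay above the 40th percentile on too few arrays to be tested, read 6.22, 3.13 and 2.78 against 2.93, 3.21 and 3.03, and Igtp, at 5.51, 3.27 and 3.22 against 3.16, 3.38 and 3.23, was not called (limma adjusted p 0.162). Irgm1 read 4.71, 4.26 and 4.27 against 4.23, 4.54 and 4.66 and was not called either (limma adjusted p 0.287). A high array was also found without testing, the first untested C57BL10/J array, at 5.91 for Gbp2, 5.28 for Igtp and 4.85 for Iigp1. Between the strains as a whole, Gbp7 (0.93 ± 0.41, limma adjusted p 0.141) and the other 3 named first were not called.

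**Figure D5:**
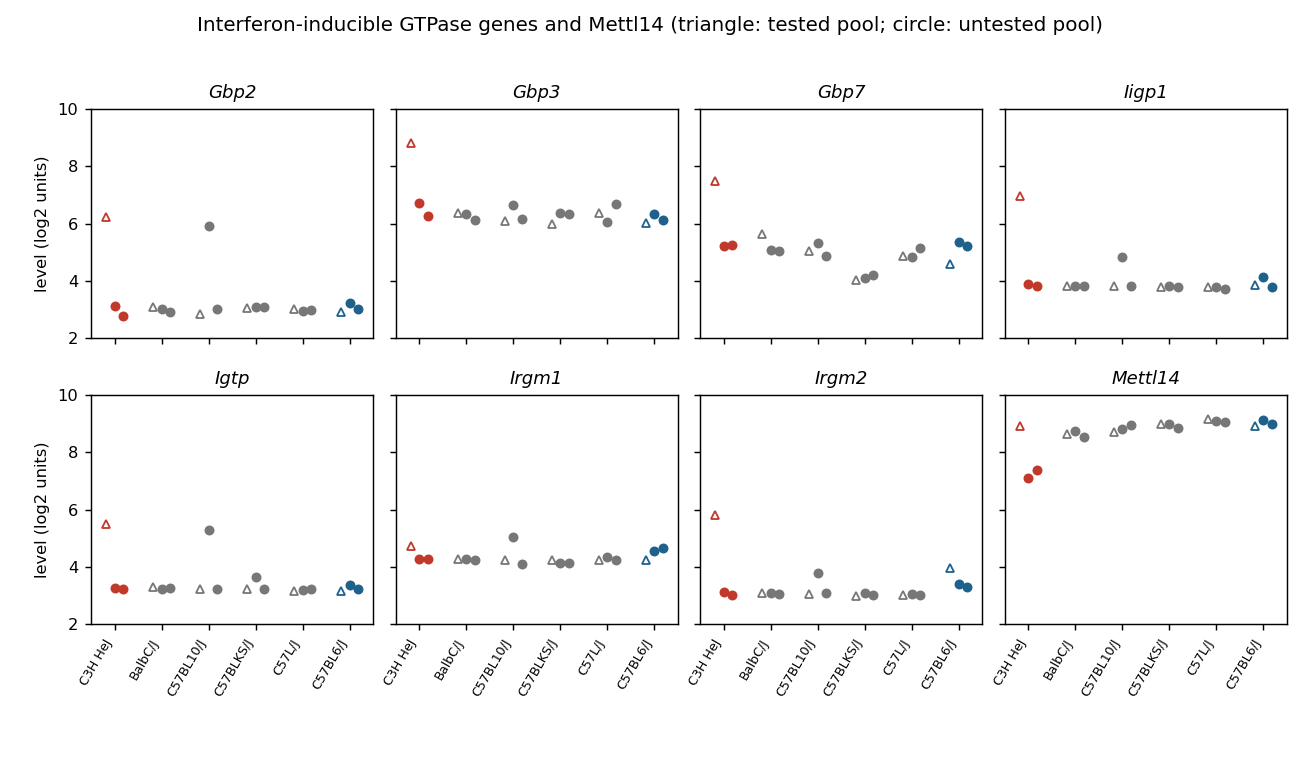
Log2 expression of interferon-inducible GTPase genes on all 18 hippocampal arrays, by strain, with tested and untested pools marked. The tested C3H HeJ pool is high, for instance 7.48 for Gbp7 beside 5.22 and 5.24 in its untested pools, and the first untested C57BL10/J pool is high for Gbp2 (5.91) and Igtp (5.28).

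Genes that respond to interferon often carry a promoter element with the letters GAAANNGAAA (TTTCNNTTTC on the other strand). It was looked for on both strands in RefSeq promoters of GRCm38.p6, the C57BL6/J reference, so the sequences show 1 side of the strain comparison. Of these 7 genes 6 were in the table, and all 6 held the motif at a listed start. Gbp3 has 2 listed starts, and only 1 of them held it. Over all promoters, counted by start and not by gene, 1131 of 32851 (3.44%) held it in the same window, 250 bases before to 50 after the start. The genes, the motif and the stretch shown were chosen after the values were seen. A match is a description of the letters, not a site shown to be used. The stretches of Igtp and Irgm2 printed below are nearly alike around the motif, so the 6 genes are not 6 separate observations. Iigp1 is named only. The 100 bases before each start are printed in the direction of transcription to show where the motif, in capitals, lies. The first base of a gene's matches was 30 to 64 bases before the start and the last 15 to 55. In Gbp3 and Irgm1, 2 matches overlap, and 323 of all promoters (0.983%) have a match within these 100 bases. The stretches are chr3:142620563-142620662 (plus strand) for Gbp2, chr3:142559944-142560043 (plus strand) for Gbp3, chr3:142530236-142530335 (plus strand) for Gbp7, chr11:58199456-58199555 (plus strand) for Igtp, chr11:48871421-48871520 (minus strand) for Irgm1, chr11:58214877-58214976 (plus strand) for Irgm2.
Gbp2: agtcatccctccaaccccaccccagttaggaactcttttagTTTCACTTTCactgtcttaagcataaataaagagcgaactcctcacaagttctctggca
Gbp3: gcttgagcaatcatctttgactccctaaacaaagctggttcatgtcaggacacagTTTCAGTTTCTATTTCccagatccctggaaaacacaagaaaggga
Gbp7: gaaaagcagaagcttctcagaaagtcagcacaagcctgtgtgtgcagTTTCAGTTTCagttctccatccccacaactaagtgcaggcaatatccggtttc
Igtp: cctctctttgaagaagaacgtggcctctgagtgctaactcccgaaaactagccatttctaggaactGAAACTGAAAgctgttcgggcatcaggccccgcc
Irgm1: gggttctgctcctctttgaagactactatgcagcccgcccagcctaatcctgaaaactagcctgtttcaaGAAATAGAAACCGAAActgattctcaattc
Irgm2: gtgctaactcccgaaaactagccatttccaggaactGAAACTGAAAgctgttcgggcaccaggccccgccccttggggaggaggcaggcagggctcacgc

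Other genes called in the testing interaction had different shapes. Mettl14, a subunit of the enzyme that writes N6-methyladenosine on RNA, read 8.92, 7.10 and 7.40 on the C3H HeJ arrays and 8.92 to 9.12 on the C57BL6/J arrays (interaction 1.81 ± 0.21, limma adjusted p 0.0143). The 2 untested C3H HeJ pools were low and the tested one was at the level of the other strains. That call was lost without the first untested C57BL6/J array. Rfc4, a clamp loader of DNA replication, read 6.71, 5.86 and 5.96 against 4.98, 6.13 and 6.22 (2.00 ± 0.17), Riok2, a ribosome assembly kinase, read 9.39, 9.03 and 9.10 against 9.03, 9.90 and 9.89 (1.18 ± 0.11) and Abcc12 read 4.46, 3.49 and 3.46 against 3.22, 3.59 and 3.55 (1.34 ± 0.12). In all 3 the tested C57BL6/J pool was the lowest of its strain and the tested C3H HeJ pool the highest of its strain. The limma adjusted p was 0.00209 for each, and these 3 calls remained without any 1 of the 4 untested arrays. The summed thalamic markers were highest on the tested C57BL6/J array, at 12.06, beside 10.80 and 10.88 on the untested C57BL6/J arrays. On the C3H HeJ arrays they read 11.40, 11.15 and 10.37, and their part in these calls was not tested.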

How the data were processed

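RNA of whole hippocampus was measured on Affymetrix mouse 3' arrays, and the deposited values are log2 expression per probe set, normalized by the authors. Tools named in the submitters' processing notes are R 2.6.1, affy 1.16.0, RMA, GCRMA 2.10.0 and limma 2.12.0. The sources used here do not give which of RMA and GCRMA made the values, nor a hybridization batch or scan date. Array number limits the precision.

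Of 45101 probe sets, 64 controls were left out, 34945 named 1 gene, 932 several and 9160 were unnamed here. Symbols came from GEO's platform annotation, and 34741 Entrez identifiers matched the RefSeq table, with 0 symbols changed. Each of 18193 genes took its probe set with the highest mean over 54 arrays. Genes above an array's 40th percentile on at least 3 of 18 hippocampal arrays were tested with limma 3.58.1 in R 4.3.3 (terms for strain and testing, intensity trend, two-sided, Benjamini-Hochberg adjusted p under 0.05), and the method was tested on simulated data. Tissue and testing interactions used limma too.

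Named genes are called genes without overlap between strains, namely the 10 highest and 10 lowest, the same among those with a second probe set called alike, up to 4 per list by p, the 5 smallest p of each interaction, and the documented variants, Pdxdc1 and Etnppl throughout. Other members of the 44 lists (466 genes, 417 with a probe set), and the GTPases beyond the rule, were named after their values were seen. Members and lists were chosen with earlier results of these data known. Alternatives were other scaling, filters, probe sets, models and arrays left out.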

Additional observations from a re-analysis of the deposited data

Results flagged for a closer look

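For 27 of the genes named, the strain difference (C3H HeJ minus C57BL6/J, log2) in hippocampus differed from that in striatum by limma's interaction test. The values below are the interactions, hippocampus minus striatum. Among those called whichever of the 12 arrays was left out, 17 in all, the difference in hippocampus lay above that in striatum for Abhd14a (2.22), Bhlhe41 (2.11), Col11a1 (3.92), Hbegf (1.53), Klhl1 (2.40), Mamdc2 (2.02), Mir1931 (1.63), Shmt1 (0.78) and Slc27a2 (2.11). It lay below for Acer3 (-2.07), Aif1 (-0.77), Atp23 (-1.53), Bhlhe40 (-1.26), Dmp1 (-2.81), Dubr (-2.64), Npy (-0.75) and Zfp874a (-0.89). The other 10 lost the call without at least 1 array, with a higher difference in hippocampus for Gria1 (0.66) and Lsm11 (1.15) and a lower one for Casp9 (-0.74), H2-D1 (-1.61), H2-K1 (-1.06), Mettl14 (-1.09), Nptx2 (-0.72), Pttg1 (-1.12), Sst (-0.87) and Tac1 (-0.66).

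For 30 of the genes named, the strain difference (C3H HeJ minus C57BL6/J, log2) in hippocampus differed from that in brainstem by limma's interaction test. The values below are the interactions, hippocampus minus brainstem. Among those called whichever of the 12 arrays was left out, 21 in all, the difference in hippocampus lay above that in brainstem for Armh4 (1.05), Cfap54 (2.68), Col11a1 (4.17), Gja1 (0.27), H2-D1 (1.61), Slc27a2 (3.13) and Wfs1 (1.17). It lay below for 4933439C10Rik (-1.07), Acer3 (-2.59), Atp23 (-0.83), Bdnf (-1.24), C1ql2 (-2.29), Chka (-0.63), Cyp11a1 (-2.22), Etnppl (-2.47), H2-Bl (-3.53), Mir1931 (-4.01), Nme7 (-1.75), Npy (-0.83), Syn2 (-0.26) and Wdfy1 (-0.60). The other 9 lost the call without at least 1 array, with a higher difference in hippocampus for Cacna2d3 (0.38) and Rorb (0.92) and a lower one for Aldoc (-0.31), Bhlhe40 (-0.45), Got1 (-0.35), Penk (-0.70), Per1 (-0.86), Sst (-0.74) and Tac1 (-0.80).

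The change with behavioural testing differed between C3H HeJ and C57BL6/J in 8 of the genes named, by limma's interaction test, where each strain had 1 tested pool. The differences were Abcc12 (1.34), Gbp7 (2.94), Rfc4 (2.00) and Riok2 (1.18), called whichever untested array was left out, and Gbp3 (2.54), Iigp1 (3.23), Irgm2 (2.15) and Mettl14 (1.81), which lost the call without at least 1 of them. As the tested pool of a strain is a single array, testing and pool cannot be told apart.

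Acer3, Atp23, Col11a1, Mir1931, Npy and Slc27a2 were called against both other tissues whichever array was left out, Mir1931 with opposite signs. Bhlhe40, H2-D1, Sst and Tac1 were also called against both, H2-D1 with opposite signs, but lost a call without at least 1 array. No technical explanation was tested for any of these genes, and mice were shared between the tissues.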

How the results depend on the processing

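Of 112 named genes called different between the strains, 69 kept the call under every alternative in which they were tested, and 88 kept it without each of the 6 arrays in turn. A further 13 lost it only on other probe sets of the gene. Genes with 1 probe set could not lose a call that way, since they have no next brightest one and their mean is that same probe set. On the next brightest probe set 1312 genes were called, 451 of them higher, out of 5914 tested. With only the 6 arrays of both strains 1432 were called, 580 higher and 852 lower, a fit with fewer samples. Leaving out 1 array gave 1510 to 2839 called genes (2212 with all arrays), 637 to 1186 higher, 824 to 1653 lower and 247 to 275 past 2-fold, 761 to 887 against BalbC/J and 3206 to 5339 probe sets. It gave 423 to 1119 genes against striatum, 468 to 1526 against brainstem and 7 to 1234 for testing, where a tested array cannot be left out. Against striatum 579 were called after quantile normalization and 360 after median centring, and against brainstem 507 after median centring. For testing, 17 were called after median centring and 51 with no filter on low values. The cause was not tested. Genes whose difference changed sign on the next brightest probe set were Abcc9 (0.068), Chka (0.20), Cnr1 (-0.51), Cyp11a1 (0.0064), Flt1 (-0.10), Gdpd1 (0.080), Gria1 (-0.20), Grin2b (-1.08), Kcnj9 (1.22), Nos1 (-0.052), Nr1d2 (-0.41), Rorb (-0.61), Rpgrip1 (0.076), Slc1a2 (2.34) and Tac1 (0.11). On the mean of all probe sets these were Chka (0.0046), Cnr1 (-0.14), Grin2b (-0.93), Kcnj9 (0.20), Kcnq5 (-1.57) and Nr1d2 (-0.11). With pool position as a replicate block, 2096 genes were called, 2070 of them shared with the model without it, 834 against striatum and 745 against brainstem. The numbers do not pair the arrays, since the deviations of same-numbered C3H HeJ and C57BL6/J arrays correlated at -0.25, -0.12 and -0.20. The alternatives for BalbC/J, for single probe sets and for testing, and those leaving out arrays of both tissues, were chosen after seeing the data. With 3 pools per strain, small differences are limited by the number of arrays, and genes near the floor of the scale have no order there.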
